A study of Mus musculus with 12 samples.

Results

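The genes described here are the caveolins Cav1 and Cav2, the cavins Cavin1, Cavin2 and Cavin3, and Ehd2. They were taken by symbol, 1 row of the table for each, and are 6 of the 78317 genes listed. All 6 passed the filter on low counts, which left 14012 genes for testing. The group was chosen on measured values of this series, because Cav1 and Cavin2 had been seen to be lower after TGFβ1 in control cells. TGFβ1 in control cells is therefore described for all 6 genes without a test, and tests are given for the PBRM1 KO libraries and for the comparisons between genotypes.

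All libraries came from 4T1, a mouse line of triple negative breast cancer. The cells carried either the control or the PBRM1 KO genotype and were left without treatment or kept with 5 ng/ml TGFβ1 for 4 days, with 3 replicates in each of the 4 groups. PBRM1 is a subunit of the PBAF chromatin remodelling complex, and TGFβ1 is a cytokine that drives epithelial to mesenchymal transition in many epithelial cells. The labels call the replicates biological and put sgCt or sgPB in the library names. They do not say more on how PBRM1 was disrupted, whether the knockout cells were 1 clone or a pool, or whether replicates were separate cultures, so p-values measure the spread between these samples. The assay counted messenger RNA at its 3′ end.

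Caveolae are small flask-shaped pits of the plasma membrane that buffer membrane tension and take part in endocytosis and signalling. CAV1 and CAV2 are membrane-inserted proteins that assemble into the inner coat, and CAV1 is required for caveolae to form outside striated muscle. The cavins bind that coat from the cytosol: CAVIN1 is needed for caveolae in all tissues, CAVIN2 helps to shape the membrane, and CAVIN3 is linked to signalling and trafficking of the pits. EHD2 is an ATPase that forms a ring at the neck and holds caveolae at the surface. CAV1 is also known to bind TGFβ receptors and to promote their internalisation and degradation.

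Each library held 9265693 to 11250850 counts over 22908 to 24402 detected genes. Pbrm1 transcripts were still counted in the knockout libraries, at 207 to 274 CPM (counts scaled to the library total) against 258 to 328 CPM in the control libraries. Replicate 3 stood apart in both TGFβ1 groups. On the first principal component, with 53.2% of the variance, scaled so that untreated libraries average 0 and TGFβ1 replicates 1 and 2 average 1, this replicate had a position of 0.421 among treated control cells and 0.385 among treated PBRM1 KO cells. All 9 epithelial markers were tested, and their summed level was 2770 to 3000 CPM in untreated and 2050 to 2550 CPM in TGFβ1-treated control cells, without overlap. In PBRM1 KO cells it was 2480 to 2700 CPM untreated and 2330 to 2680 CPM treated, with overlap, and the part of these shifts in the values of the caveolins and cavins was not tested. Of the triple negative receptors, Pgr was at 0 to 0.133 CPM and Esr1 at 4.42 to 11.5 CPM, while Erbb2 was at 34.6 to 41.6 CPM. The 8 endothelial and 6 adipocyte markers, from cell types rich in caveolae, gave none that passed the filter. They summed to 0.276 to 1.72 CPM and 0 to 0.958 CPM, and the highest library had 0.543 CPM of the endothelial gene Pecam1 and 0 CPM of the adipocyte gene Plin1. In a bulk library, fewer cells that express a gene and less RNA per cell cannot be told apart.

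The sequences before the annotated starts of the caveolin pair, of Cavin2 and of Cavin1 are shown here. The reason is that both caveolins fell with TGFβ1 in PBRM1 KO cells while the cavins parted. Each is the 250 bases upstream of a RefSeq start in build GRCm38.p6, read 5′ to 3′ along the gene's strand. RefSeq windows matched 5 of the 6 members, all but Cavin3, so Cavin1 is the only cavin shown that did not pass. Capitals mark matches, on either strand, to the SMAD-binding element CAGAC, the AP-1 site TGANTCA, the GC box GGGCGG, the E-box CACCTG bound by SNAI and ZEB factors, the TEAD site GGAATG, the CCAAT box CCAAT and the CArG box. Cav1 lies at chr6:17306085-17306334 on the plus strand, Cav2 at chr6:17280935-17281184 on the plus strand, Cavin2 at chr1:51288876-51289125 on the plus strand and Cavin1 at chr11:100970618-100970867 on the minus strand.
Cav1: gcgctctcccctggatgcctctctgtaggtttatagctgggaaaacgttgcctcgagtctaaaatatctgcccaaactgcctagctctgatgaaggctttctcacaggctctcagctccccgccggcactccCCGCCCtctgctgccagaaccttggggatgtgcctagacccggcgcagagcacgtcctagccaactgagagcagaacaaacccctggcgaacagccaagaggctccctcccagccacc
Cav2: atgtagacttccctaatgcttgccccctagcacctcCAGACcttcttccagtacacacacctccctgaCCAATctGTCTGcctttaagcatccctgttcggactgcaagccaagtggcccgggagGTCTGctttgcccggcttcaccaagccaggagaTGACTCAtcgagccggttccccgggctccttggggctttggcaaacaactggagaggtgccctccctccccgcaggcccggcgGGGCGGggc
Cavin2: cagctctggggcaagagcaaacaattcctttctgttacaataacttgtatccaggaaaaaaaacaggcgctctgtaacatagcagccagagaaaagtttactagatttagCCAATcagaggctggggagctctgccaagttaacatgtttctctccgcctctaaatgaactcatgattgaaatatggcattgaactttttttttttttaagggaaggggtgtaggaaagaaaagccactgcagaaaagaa
Cavin1: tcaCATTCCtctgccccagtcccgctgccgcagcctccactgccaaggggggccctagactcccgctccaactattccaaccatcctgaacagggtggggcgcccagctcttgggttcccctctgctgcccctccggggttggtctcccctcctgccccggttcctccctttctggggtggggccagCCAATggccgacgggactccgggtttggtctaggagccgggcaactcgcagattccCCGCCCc
The Cav2 window held 3 CAGAC matches, 1 AP-1 match 86 bases before the start, 1 GC box and 1 CCAAT box. The Cav1 window of its first start held 1 GC box, while the window of a second annotated Cav1 start, not shown, held 2 CAGAC matches and 1 E-box. The Cavin2 window held 1 CCAAT box and the Cavin1 window 1 GC box, 1 CCAAT box and 1 TEAD match. The Ehd2 window, not shown, held 1 CAGAC match, 1 GC box and 1 CCAAT box. Over 32851 windows of the same length, 42.2% held CAGAC, 6.75% the AP-1 site, 32.7% the GC box, 17.2% the E-box, 12.6% the TEAD site, 33.8% CCAAT and 1.47% the CArG box. The Cavin2 window had 40.4% G and C, against 59.6% for Cav1, 62% for Cav2, 67.6% for Cavin1 and a median of 52.4% over all windows. These matches describe the letters only.

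The 2 caveolins were both lower in every TGFβ1 library of control cells than in any untreated one, Cav1 more so than Cav2. Cav1 was at 28.2, 19.9 and 20.6 CPM in untreated control replicates 1 to 3 and at 6.37, 7.06 and 7.48 CPM with TGFβ1. Its level with TGFβ1 was 30.5% of the untreated level, a log2 fold change of −1.71 ± 0.19 (SE, n = 3 per group). The treated libraries lay close together, and the untreated spread came mainly from replicate 1. Cav2 was at 35.8, 35.1 and 36.4 CPM untreated and at 18.1, 17.5 and 22.9 CPM with TGFβ1, 54.6% of the untreated level and a log2 fold change of −0.87 ± 0.17. Its treated replicate 3 was the highest of the treated libraries.

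Among the cavins, Cavin2 was the one that differed between untreated and TGFβ1-treated control cells without overlap. It was at 50, 38.3 and 46.7 CPM untreated and at 10.8, 10.8 and 13.2 CPM with TGFβ1, 25.8% of the untreated level and a log2 fold change of −1.95 ± 0.18. Cavin1, the cavin that all caveolae need, was at 89.9, 66.7 and 67.4 CPM untreated and at 74.4, 78 and 60.5 CPM with TGFβ1. Those ranges overlapped, and the log2 fold change was −0.08 ± 0.15, with a 95% interval of −0.4 to 0.25. Cavin3 was at 98.5, 92.4 and 102 CPM untreated and at 108, 96.5 and 69.4 CPM with TGFβ1, a log2 fold change of −0.1 ± 0.14 with an interval of −0.4 to 0.2. Its treated replicate 3 was the lowest of the 6 control libraries.

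Ehd2, the neck ATPase, was at 50.7, 45.6 and 50 CPM in untreated control cells and at 35.5, 35.2 and 42.2 CPM with TGFβ1. The groups did not overlap, and the treated level was 77.1% of the untreated one, a log2 fold change of −0.37 ± 0.11. Thus 4 of the 6 genes lay lower without overlap in control cells, against 12.2% of all tested genes, and since Cav1 and Cavin2 were picked from this comparison nothing is read from that count.

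**Figure D1:**
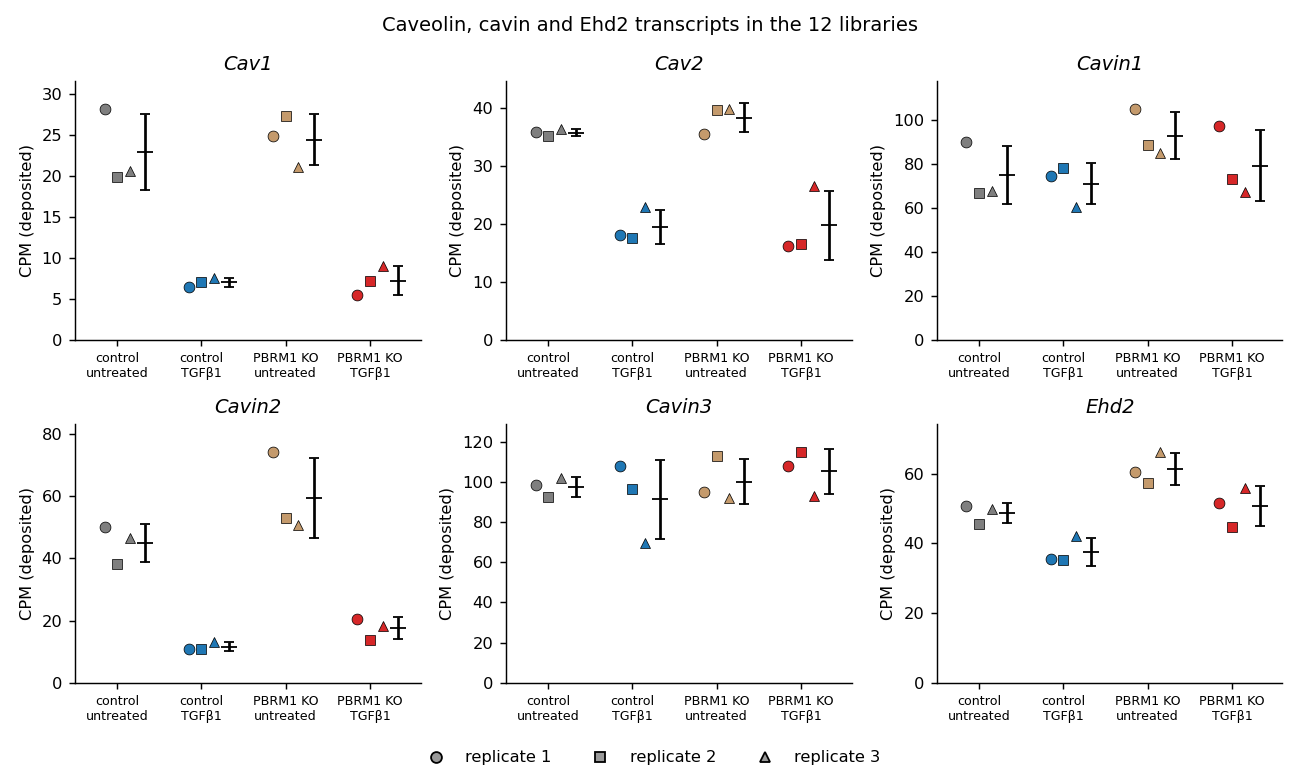
CPM of each of the 6 genes by library in the 4 groups, with points for the replicates and bars for mean and SD on axes that start at 0. Cav1, Cav2, Cavin2 and, by less, Ehd2 sit lower in all TGFβ1 libraries of both genotypes than in any untreated library of that genotype. Cavin1 and Cavin3 overlap between treated and untreated groups.

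In PBRM1 KO cells, Cav1, Cav2 and Cavin2 fell with TGFβ1, while Cavin1 and Cavin3 did not pass the test and Ehd2 passed it only with the replicate number as a block or without treated PBRM1 KO replicate 3. That is 3 of 6 genes lower, against 3.72% of all tested genes, and 0 of 6 higher, against 7.65% (edgeR quasi-likelihood, adjusted p below 0.05 over all 14012 genes). Cav1 and Cavin2 had been picked for the same fall in control cells, so this count is not independent of that choice. Cav1 was at 24.9, 27.3 and 21.1 CPM untreated and at 5.38, 7.17 and 8.94 CPM with TGFβ1. It fell to 29.2% of the untreated level, a log2 fold change of −1.77 ± 0.19 (edgeR adjusted p = 0.000113), and was lower in 3 of 3 treated libraries. Cav1 rested on the fewest counts of the 6 genes, 57 to 312 per library.

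Cav2, which assembles with CAV1, was at 35.5, 39.7 and 39.9 CPM untreated and at 16.1, 16.5 and 26.6 CPM with TGFβ1 in PBRM1 KO cells. The groups did not overlap, although treated replicate 3 lay between the others and the untreated libraries. The fall was to 51.4% of the untreated level, a log2 fold change of −0.96 ± 0.17 (edgeR adjusted p = 0.00392).

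Cavin2 in PBRM1 KO cells was at 74.3, 53 and 50.9 CPM untreated and at 20.6, 13.9 and 18.4 CPM with TGFβ1. The lowest untreated library was well above the highest treated one. Cavin2 fell to 29.5% of the untreated level, a log2 fold change of −1.76 ± 0.17 (edgeR adjusted p = 7.68e-05).

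Cavin1 and Cavin3 gave values near no difference with TGFβ1 in PBRM1 KO cells. Cavin1 was at 105, 88.3 and 84.9 CPM untreated and at 97.3, 73 and 67.2 CPM treated, with a log2 fold change of −0.24 ± 0.15, a 95% interval of −0.56 to 0.08 and an edgeR adjusted p of 0.318. Cavin3 was at 95.1, 113 and 92.2 CPM untreated and at 108, 115 and 92.9 CPM treated, with a log2 fold change of 0.06 ± 0.14, an interval of −0.24 to 0.36 and an edgeR adjusted p of 0.836. For both genes treated and untreated libraries overlapped, and the intervals leave out a fall as large as that of Cav2. The Cavin1 interval still holds a fall of the size of Ehd2 (−0.28). Over the alternatives Cavin1 ran from −0.41 to −0.15, with a lowest adjusted p of 0.0668.

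Ehd2 was at 60.4, 57.5 and 66.3 CPM untreated and at 51.7, 44.7 and 56 CPM with TGFβ1 in PBRM1 KO cells. The groups did not overlap, and the treated level was 82.2% of the untreated one, but the log2 fold change of −0.28 ± 0.11 missed the threshold (edgeR adjusted p = 0.11). With the replicate number as a block it was −0.29 and passed (edgeR adjusted p = 0.0164), and it was −0.37 and passed when both replicate 3 libraries with TGFβ1 were left out (edgeR adjusted p = 0.00974). Without replicate 3 of the treated PBRM1 KO cells alone it was −0.39 (edgeR adjusted p = 0.0261). With Ehd2, 4 of the 6 genes lay lower without overlap, against 13.7% of all tested genes, a count that also holds the picked genes Cav1 and Cavin2.

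**Figure D2:**
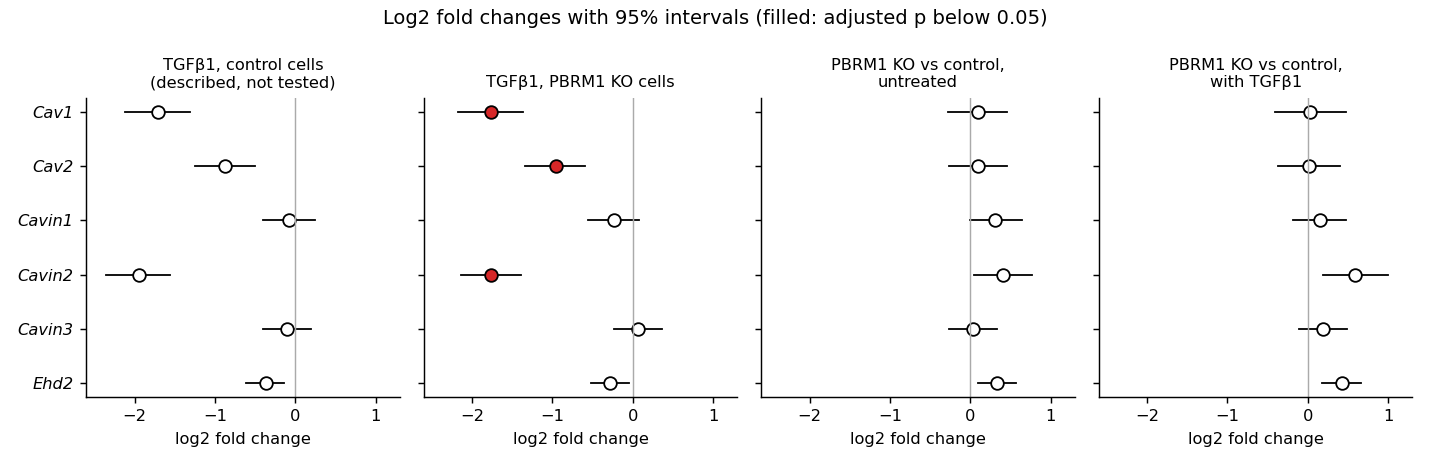
Log2 fold change of each gene with TGFβ1 in either genotype and between genotypes in either state, as points with 95% intervals from the edgeR fit of all 12 libraries, filled where a tested comparison had an adjusted p below 0.05. In PBRM1 KO cells the TGFβ1 intervals of Cav1, Cav2 and Cavin2 lie below 0, as does that of Ehd2 (−0.52 to −0.05), which did not pass adjustment. Those of Cavin1 and Cavin3 span 0. The control panel is a description only, and the genotype values of all 6 genes are at or above 0.

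The median log2 fold change of the 6 genes with TGFβ1 was −0.62 in PBRM1 KO cells, against 0 over all tested genes, and 5 of the 6 lay below 0, where 50% of all tested genes did. In control cells, whose values chose the group, the median was also −0.62 and all 6 lay below 0, and nothing is read from these values. The PBRM1 KO median is not independent of that choice, since Cav1 and Cavin2 are among the 6 genes.

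The smaller falls of replicate 3 showed in Cav2 most clearly, and not in every gene. Set against the untreated mean of the same genotype, Cav2 had log2 changes of −0.98, −1.03 and −0.63 in treated control replicates 1 to 3 and of −1.27, −1.21 and −0.51 in PBRM1 KO cells. Cav1 had −1.81, −1.67 and −1.56 in control and −2.17, −1.74 and −1.41 in PBRM1 KO cells, so its replicate 3 was also the smallest change in both. Cavin2 had −2.04, −2.05 and −1.73 in control cells but −1.53, −2.06 and −1.65 in PBRM1 KO cells, where replicate 1 was the smallest. Ehd2 had −0.46, −0.48 and −0.19, then −0.28, −0.46 and −0.12. Cavin1 and Cavin3 went the other way, with replicate 3 the lowest of the treated libraries in both genotypes. Cavin1 had 0, 0.06 and −0.28 in control and 0.04, −0.35 and −0.45 in PBRM1 KO cells. Cavin3 had 0.14, −0.03 and −0.48, then 0.08, 0.19 and −0.09. Whether replicate 3 differed in treatment, time or cell state was not tested.

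**Figure D3:**
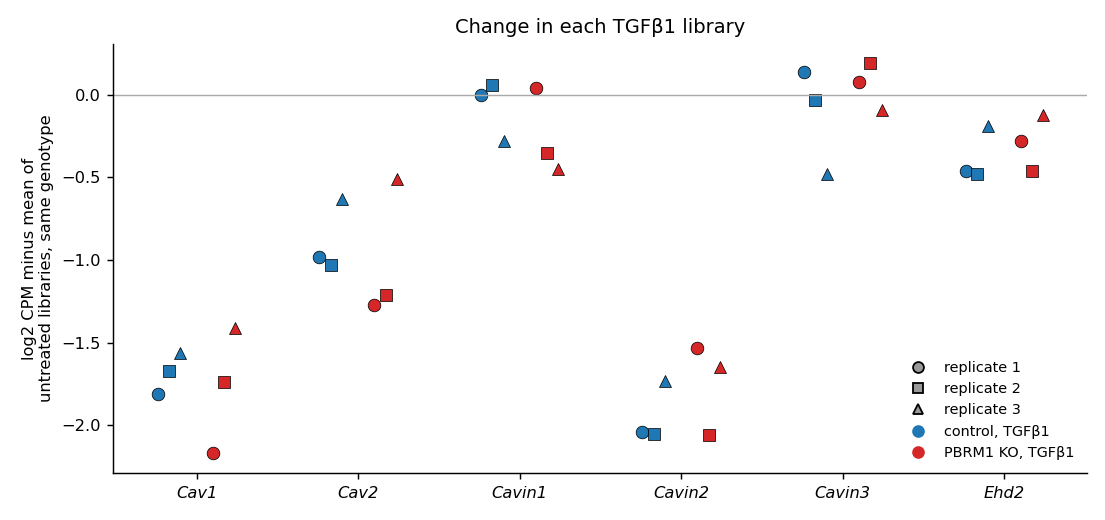
Log2 change of each gene in every TGFβ1 library against the mean of the untreated libraries of its genotype, with replicate 3 marked. Replicate 3 gives the smallest change of Cav2 and Ehd2 in both genotypes, while Cav1 and Cavin2 are at −1.41 or lower in all 6 treated libraries.

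Between genotypes, none of the 6 genes passed the main test at either state. In TGFβ1-treated cells, Ehd2 passed with the replicate block and Cavin2 with no filter on low counts. In untreated cells 0 of 6 were lower and 0 of 6 higher, where 0.236% and 0.0428% of all tested genes were, and with TGFβ1 0 and 0, where 0.2% and 0.0714% were (edgeR adjusted p below 0.05). DESeq2 and limma-voom also called 0. At an unadjusted edgeR p below 0.05, 2 of 6 genes came through in each state, Cavin2 and Ehd2, where 7.6% of all tested genes did in untreated and 8.52% in treated cells. These comparisons use the control libraries from which Cav1 and Cavin2 were picked, so they are not independent of that choice.

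Cavin2 and Ehd2 were higher without overlap in PBRM1 KO cells in both states, 2 of 6 genes against 6.95% of all tested genes in untreated cells and 6.28% with TGFβ1. In untreated cells Cavin2 differed by 0.40 ± 0.16 on the log2 scale (edgeR adjusted p = 0.571) and with TGFβ1 by 0.59 ± 0.19 (edgeR adjusted p = 0.317), higher in 3 of 3 libraries each time. With no filter on low counts the second value was 0.60 and passed (edgeR adjusted p = 0.00742). Ehd2 differed by 0.33 ± 0.11 in untreated cells (edgeR adjusted p = 0.387) and by 0.42 ± 0.11 with TGFβ1 (edgeR adjusted p = 0.183). With the replicate block the latter was 0.42 and passed (edgeR adjusted p = 0.022).

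The other members were closer together between genotypes. Cav1 differed by 0.09 (95% interval −0.28 to 0.46) in untreated cells and by 0.03 (−0.41 to 0.47) with TGFβ1, and Cav2 by 0.10 (−0.26 to 0.46) and 0.01 (−0.37 to 0.4). Cavin3 differed by 0.03 (−0.26 to 0.33) and 0.19 (−0.11 to 0.49). Cavin1 differed by 0.31 (−0.01 to 0.64) in untreated cells and by 0.15 (−0.18 to 0.47) with TGFβ1. The median of the 6 genes was 0.21 in untreated and 0.17 in treated cells, with 0 of 6 below 0 in either.

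Ordered by level, Cav1, Cav2 and Cavin2 had their untreated groups on top, which largely follows from their fall with TGFβ1. Cav1 and Cavin2 were picked for that fall in control cells, so the order is a description only. Cav1 had group means of 24.4 ± 3.13 CPM (SD, n = 3) in untreated PBRM1 KO cells, 22.9 ± 4.6 in untreated control cells, 7.16 ± 1.78 in treated PBRM1 KO cells and 6.97 ± 0.559 in treated control cells, so neighbours of like treatment lay within 1 SD. Cav2 was at 38.4 ± 2.51 and 35.8 ± 0.647 CPM in untreated PBRM1 KO and control cells, then at 19.8 ± 5.95 and 19.5 ± 2.94 CPM in the treated groups in the same order. Cavin2 ran from 59.4 ± 13 CPM in untreated PBRM1 KO cells through 45 ± 6.02, then 17.6 (13.9 to 20.6) in treated PBRM1 KO and 11.6 ± 1.43 in treated control cells, with the treated groups below both untreated ones. Ehd2 differed in its order, at 61.4 ± 4.47 CPM in untreated and 50.8 ± 5.71 CPM in treated PBRM1 KO cells, ahead of 48.8 ± 2.76 and 37.6 ± 3.96 CPM in control cells. Cavin1 was highest in untreated PBRM1 KO cells at 92.8 ± 10.9 CPM, followed by 79.2 ± 16 in treated PBRM1 KO, 74.7 ± 13.2 in untreated control and 70.9 ± 9.24 in treated control cells, and no neighbours in that order differed beyond the larger SD. Cavin3 lay between 91.4 ± 19.9 CPM in treated control and 105 ± 11.2 CPM in treated PBRM1 KO cells. Treated PBRM1 KO cells had about the Ehd2 level of untreated control cells, within 1 SD.

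The difference of the 2 TGFβ1 responses (PBRM1 KO minus control) is given as a description, since the control response in it is the comparison that chose the group. It was −0.06 (95% interval −0.63 to 0.51) for Cav1, −0.09 (−0.62 to 0.44) for Cav2 and 0.19 (−0.35 to 0.73) for Cavin2. Cavin1 had −0.17 (−0.62 to 0.29), Cavin3 0.16 (−0.26 to 0.58) and Ehd2 0.09 (−0.24 to 0.42). Without replicate 3 of the treated PBRM1 KO cells the value for Cav2 was −0.38.

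Because the members moved unequally, the makeup of their transcripts differed with TGFβ1. Cav1 made up 38.8% ± 4.56 (SD, n = 3) of the summed Cav1 and Cav2 CPM in untreated control cells and 26.4% ± 2.08 with TGFβ1, and 38.8% ± 3.76 and 26.8% ± 3.03 in PBRM1 KO cells. Cavin2 made up 20.7% ± 1.14 of the 3 cavins' CPM in untreated and 6.88% ± 2.06 in treated control cells, and 23.4% ± 3.29 and 8.78% ± 1.72 in PBRM1 KO cells. No treated library overlapped with an untreated one in either share. Cav1 and Cavin2 were picked for their fall in control cells, so nothing is read from the control shares. With 3 libraries against 3 an exact permutation test cannot go below a two-sided p of 0.1, so none is given. Transcripts are counted at 1 end of the message, so shares between genes need no correction for length in this assay, although the efficiency of capture may differ between genes.

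The summed CPM of the 2 caveolins went from 58.7 ± 4.72 untreated to 26.5 ± 3.36 with TGFβ1 in control cells and from 62.8 ± 3.64 to 26.9 ± 7.56 in PBRM1 KO cells. The 3 cavins together went from 217 ± 20.5 to 174 ± 27 and from 252 ± 23.4 to 202 ± 23.6 CPM. Cavin transcripts per caveolin transcript were 3.73, 3.59 and 3.79 in untreated control replicates and 7.89, 7.53 and 4.71 with TGFβ1. In PBRM1 KO cells they were 4.55, 3.8 and 3.73 untreated and 10.5, 8.51 and 5.02 treated. Replicate 3 had the lowest ratio of the treated libraries in both genotypes, and still lay above all untreated ones. The sums hold Cav1 and Cavin2, picked for their fall in control cells, so nothing is read from the control sums and ratios.

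**Figure D4:**
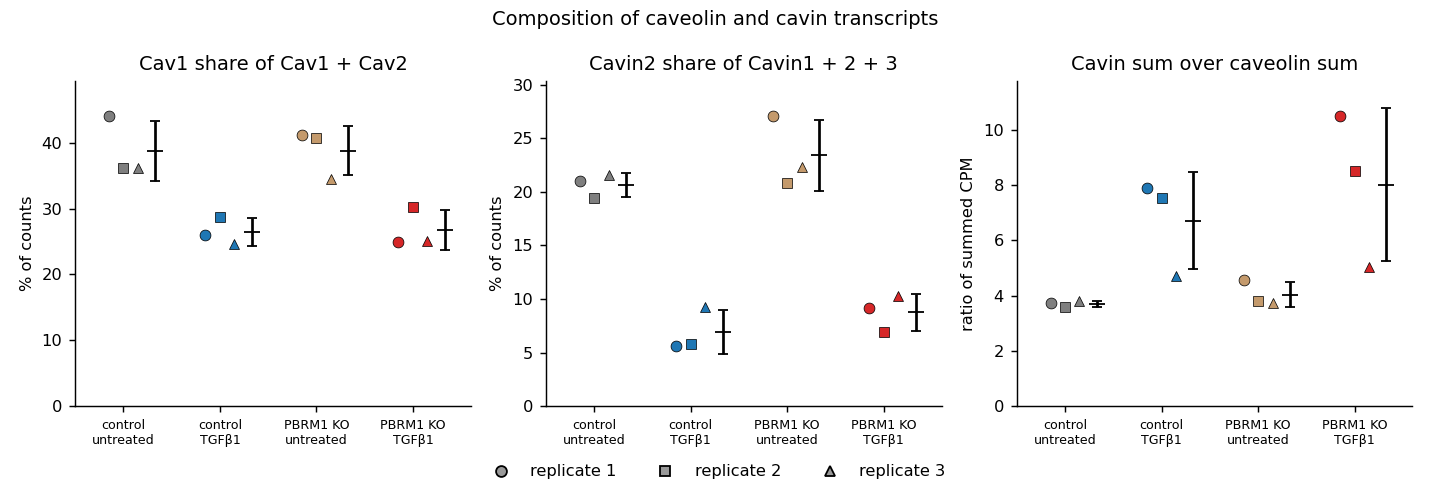
Percent of Cav1 in the summed Cav1 and Cav2 CPM, percent of Cavin2 in the summed CPM of the 3 cavins, and the ratio of the cavin sum to the caveolin sum, by library (symbols) and group with mean and SD (bars). Cav1 goes from 38.8% to 26.4% of the caveolin sum and Cavin2 from 20.7% to 6.88% of the cavin sum in control cells, with like shifts in PBRM1 KO cells. The control shares and ratios are a description, since Cav1 and Cavin2 were picked from those libraries.

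Around the caveolar coat, the striated muscle members behaved unlike the rest. Cav3, the muscle caveolin, had 0 counts in all 12 libraries. Cavin4, the muscle cavin, was at 0.533, 0.819 and 0.555 CPM in untreated PBRM1 KO cells and at 3.3, 2.39 and 1.52 CPM with TGFβ1, from 6 to 35 counts a library. It rose by 1.88 ± 0.48 on the log2 scale (edgeR adjusted p = 0.0229), and the control value was 2.08. Limma-voom lost the call (adjusted p = 0.055), as did leaving out any of the 5 PBRM1 KO libraries other than treated replicate 3, with edgeR adjusted p up to 0.114. Tmeff1, which ends 382 bases before Cavin4 on the same strand in a GENCODE annotation of the earlier build GRCm38, rose too, with group means of 15.3 CPM untreated and 62.6 CPM treated in PBRM1 KO cells (edgeR adjusted p = 0.00157), and its part in the Cavin4 value was not tested.

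Of the neck and membrane bending proteins, 1 of 6 tested genes fell with TGFβ1 in PBRM1 KO cells and 0 rose. Over all tested genes 3.72% fell and 7.65% rose, which are the shares beside the counts of this and the other lists. Ehd1, a close relative of Ehd2 in endosomal recycling, fell by 0.38 ± 0.10 (edgeR adjusted p = 0.0229), and lost the call without any of 5 PBRM1 KO libraries, at up to 0.0917. Pacsin2 and Dnm2, which shape and cut the neck, gave 0.06 and 0.01. The other tested genes of this list moved more without passing, with Ehd4 at −0.42, Dnm1 at 0.55 and Pacsin3 at 0.31. Among 6 other raft scaffolds, Mal2, a transport protein of polarised epithelia, fell to 43.1% of its untreated level (edgeR adjusted p = 0.000327) and Stom, stomatin, rose by 1.01 ± 0.15 (edgeR adjusted p = 0.00121). The flotillins, which scaffold membrane domains apart from caveolae, gave 0.31 for Flot1 and 0.03 for Flot2 and did not pass.

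Receptors reported in caveolae had 1 of 8 tested genes lower and 2 higher, where 3.72% and 7.65% of all tested genes were. Tgfbr2, the type II TGFβ receptor, fell by 0.81 ± 0.21 (edgeR adjusted p = 0.0276), and Bmpr2, a BMP receptor, rose by 0.86 ± 0.21 (edgeR adjusted p = 0.0186). Both calls were lost without any of 5 PBRM1 KO libraries, at adjusted p up to 0.135 and 0.0959. Itgb1, the integrin beta 1 chain, rose by 0.31 ± 0.08 (edgeR adjusted p = 0.0298), with edgeR adjusted p up to 0.141 over its alternatives.

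Of 11 caveola kinases and actin links, 2 rose and 0 fell, where 7.65% and 3.72% of all tested genes did. They were Abl1, a tyrosine kinase that links stress fibres to caveolae, at 0.30 ± 0.08 (edgeR adjusted p = 0.0379), and Flna, filamin A, at 0.38 ± 0.11 (edgeR adjusted p = 0.0452). Those calls were lost in 10 and 12 of 22 alternatives, among them each PBRM1 KO library left out other than treated replicate 3, with adjusted p up to 0.165 and 0.2. Of 16 genes of clathrin-coated pits, the other main route of endocytosis, 1 fell and 0 rose, beside the same shares of all tested genes. Cltb was the gene that passed, and fell by 0.60 ± 0.13 (edgeR adjusted p = 0.00997, and 0.0582 without treated PBRM1 KO replicate 2). The medians of these lists in PBRM1 KO cells ran from 0.04 to 0.19, against 0 over all tested genes, apart from the single tested coat gene. Between genotypes 0 of the 48 tested list genes passed in either state (edgeR), with 4 at an unadjusted p below 0.05 in untreated and 8 in treated cells, where 7.6% and 8.52% of all tested genes were.

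**Figure D5:**
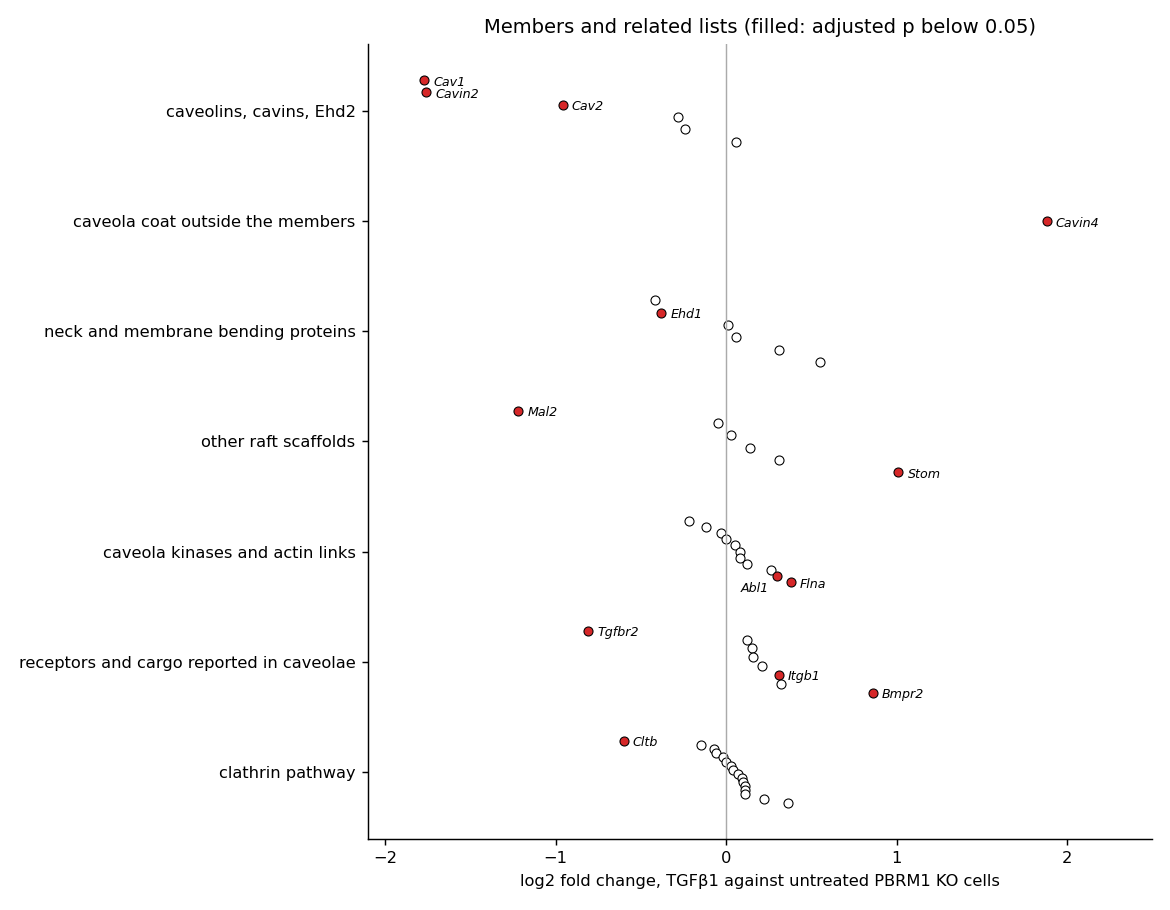
Log2 fold change with TGFβ1 in PBRM1 KO cells for the 6 genes and for each tested gene of the related lists, filled where the edgeR adjusted p was below 0.05. Cav1 and Cavin2 lie furthest to the left, and most genes of the clathrin pathway and of the kinases and actin links lie near 0.

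The caveolin genes are neighbours. In the RefSeq order of genes in build GRCm38.p6, with no other protein-coding gene between them, Cav2 and Cav1 lie between Tes and Met on chromosome 6. Neighbours here are the nearest tested protein-coding genes by start on each side. Untested genes may lie between a member and its neighbour, and distances were not used. The neighbours were named after their values were seen. Met, the receptor of hepatocyte growth factor, fell by 0.82 ± 0.14 with TGFβ1 in PBRM1 KO cells (edgeR adjusted p = 0.0026), while Tes, a LIM domain protein of focal adhesions, rose by 0.56 ± 0.15 (edgeR adjusted p = 0.0324, and up to 0.164 without any of the same 5 libraries). These 4 tested genes, in that order, therefore held 3 that fell and 1 that rose. Slc39a10 and Nabp1, the nearest tested genes on either side of Cavin2 on chromosome 1, gave 0.34 and 0.25 and did not pass. Slc39a10 passed with no filter on low counts (edgeR adjusted p = 0.0417). For members that did not pass, Atp6v0a1, a nearest tested gene of Cavin1, rose by 0.92 ± 0.22 (edgeR adjusted p = 0.0161, and up to 0.0872 over its alternatives). Smpd1, a nearest tested gene of Cavin3, rose by 0.57 ± 0.16 (edgeR adjusted p = 0.0404, and up to 0.171). The other nearest tested genes, Stat3 for Cavin1, Trim30a for Cavin3 and Nop53 and Bicra for Ehd2, did not pass, although Stat3 passed in 7 of 22 alternatives. Annotated antisense genes had few counts, with Gm15581 across Cav1 and Cav2 at no more than 0.0889 CPM and 9330175M20Rik across Cavin2 at no more than 0.184 CPM.

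Over the 12 libraries, which share treatment and the replicate 3 deviation, Cav1 correlated with Cav2 at a Pearson r of 0.95 and with Cavin2 at 0.932 in log2 CPM. After removing group means the values were 0.607 and 0.152. Cavin1 and Cavin3 correlated at 0.383 over the 12 libraries and at 0.339 after removing group means. By the same measure over the 12 libraries, genes most like Cav1 included Car13 (0.979) and Chchd10 (0.972). Car13, a carbonic anhydrase, had group means of 22.4, 8.26, 22.8 and 7.19 CPM in control untreated, control TGFβ1, PBRM1 KO untreated and PBRM1 KO TGFβ1 cells. Those most like Cav2 were Padi1 (0.993), Dlk2 (0.98) and Anln (0.978), and those most like Cavin2 were Ctnnal1 (0.973), Lactb (0.97) and Metrn (0.969). For Ehd2 they were Creb5 (0.969), Mllt1 (0.963) and Rad51d (0.952). Ranked by Spearman instead, the top 3 shared 0, 1, 0 and 1 genes for Cav1, Cav2, Cavin2 and Ehd2, so these names depend on the measure. The genes most like Cavin1, led by Clcn3 (0.932), and Cavin3, led by Plekhf1 (0.897), had lower values.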

How the data were processed

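Per the labels' protocols, the assay is stranded 3′ end counting from poly(A) primed cDNA, in which molecular identifiers removed duplicates. The submitters' processing notes name build mm39, STAR 2.7.11, fastp 0.24.0, featureCounts and Subread 2.1.1 among the tools, without their order. Deposited expected counts, by their values, held 8.16% fractional cells; of the 6 genes, Cavin1 in 1 library and Ehd2 in 2 had fractional counts. The deposited CPM equalled count over library total, within 4.85e-06. No column was left unused, and the 92 spike-in entries held 0 counts.

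Counts were rounded, filtered with filterByExpr and scaled by TMM. EdgeR 4.0.16 in R 4.3.3 fitted 1 mean per group over all 12 libraries, tested with the quasi-likelihood F test, and adjusted p by Benjamini-Hochberg over all tested genes, with the threshold at 0.05. The common biological coefficient of variation was 12.5%. SE was taken from the fold change and F (the absolute log2 value divided by √F). Scripts were tested on simulated data. Limma 3.58.1 and DESeq2 1.42.0 served as alternatives, with other scaling, filters, left-out libraries and a replicate block.

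The members, the 6 related lists and the markers were chosen with earlier results of these data known. Named genes were the members, the 3 most correlated genes of each with a mean of at least 10 CPM (log2 CPM with prior count 2), and up to 3 called genes per direction of each list. A gene that this rule names is not reported here. The neighbours on the chromosome fell outside this rule, since the annotation was of another build, and only the order of tested genes was used. Uncalled genes named from the lists also fell outside it. Same-numbered libraries deviated together for the TGFβ1 comparison of PBRM1 KO cells (r = 0.201, 0.139 and 0.202) and for the genotype comparison under TGFβ1 (r = 0.396, 0.416 and 0.726), all over 0.1. The labels do not say that a number marks a shared day, so this pairing comes from the data. Not all values were over 0.1 for TGFβ1 in control cells (r = 0.258, −0.0835 and 0.137) or for genotype without TGFβ1 (r = 0.149, 0.069 and 0.125). The calls are from the fit without a block, and the blocked value is printed beside each member whose call it changes.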

Additional observations from a re-analysis of the deposited data

How the results depend on the processing

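Over 22 alternatives, the number of the 6 genes that passed with TGFβ1 in PBRM1 KO cells was 3 to 4, and Cav1, Cav2 and Cavin2 passed in all of them. Cav1 ranged from −2 to −1.6 on the log2 scale (highest adjusted p 0.00145), Cav2 from −1.27 to −0.82 (0.0284) and Cavin2 from −1.87 to −1.58 (0.00134). Between untreated genotypes 0 of 6 passed in all 22. With TGFβ1, 1 passed with no filter on low counts (Cavin2) and 1 with the replicate block (Ehd2). The replicate block also added Ehd2 to the calls for TGFβ1 in PBRM1 KO cells, and changed no other call of a member. The median of the 6 genes in control cells, −0.62, was −0.75 without both TGFβ1 replicate 3 libraries and ran from −0.75 to −0.57 with 1 library left out. The median difference of responses, 0.02, ran from −0.05 to 0.09. Over all genes, TGFβ1 in PBRM1 KO cells gave 1593 calls and 613 to 3984 under the alternatives, with 2780 under the replicate block. Genotype gave 39 without TGFβ1 (278 with no filter, 106 with DESeq2, 144 with the block, 135 with only the 6 libraries compared, 17 at a mean of at least 10 CPM, 201 without both TGFβ1 replicate 3 libraries, and 8 to 75 with 1 library left out). With TGFβ1 it gave 38 (259, 89, 158, 4, 21, 76, and 3 to 61 in the same order). The shares and ratios of the families had alternatives chosen after seeing the data. With 1 library left out, the ratio of cavins to caveolins ran from 6.12 to 7.71 in treated control cells. In treated PBRM1 KO cells it ran from 6.76 to 9.5. The Cavin2 share ran from 5.7% to 7.54% and from 8.02% to 9.71% in the same groups, and the Cav1 share from 25.3% to 27.4% and from 25% to 27.7%. With 3 libraries a group, differences between genotypes of the size seen for Cavin2 and Ehd2 did not pass adjustment over all genes outside the settings named.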

Other observations

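Summed markers of smooth muscle and of fibroblasts were higher in some TGFβ1 libraries. The 6 smooth muscle markers summed to 2.3 to 3.35 CPM in untreated and 2.27 to 15.2 CPM in TGFβ1-treated control cells, and to 1.85 to 3.82 and 1.52 to 5.5 CPM in PBRM1 KO cells. Most of the highest sum was Acta2, at 0.647 to 13.5 CPM over the 12 libraries. Tagln reached 2.31 CPM, and Myh11, Cnn1, Des and Myocd no more than 0.633 CPM. The 7 fibroblast markers summed to 35.3 to 50 and 34.1 to 109 CPM in control cells and to 28.4 to 39.2 and 29.5 to 65.1 CPM in PBRM1 KO cells. Leukocyte markers summed to 4.97 to 8.33 CPM, mostly Cd68 at 3.62 to 7.83 CPM, with Ptprc at 0 to 0.181 CPM. Their part in the values of the caveolins and cavins was not tested.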
